A study of Mus musculus with 21 samples.

Results

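The genes described here are 43 genes of glucose and lactate transport, glycolysis, the pyruvate dehydrogenase complex and the tricarboxylic acid (TCA) cycle, out of 55487 genes counted in RNA from mouse spleen T cells. The rule that chose them names genes by role and uses no measured value, and all 43 were found by symbol and passed the filter on low counts in every comparison. The study compared CD4 T cells of wild type mice (WT, n = 5 libraries), the same cells of mice with the genotype Tet2-/-Tet3flx/flxCD4cre (DKO, n = 5), and DKO cells recovered from recipients after a 1st transplantation (TX1, n = 4) or a 2nd transplantation (TX2, n = 7). Tet2 is lost in all cells of these mice, whereas Tet3 is deleted by a Cre driven from Cd4, which acts in developing T cells and so also in cells that later become CD8 T cells. WT and DKO cells were sorted as live CD4+CD25- TCRb+ cells that did not bind the aGalCer-loaded CD1d tetramer. Transferred cells were of CD45.2+ donors in CD45.1+ recipients and were sorted as live CD45.2+ CD45.1- cells, so the sort and the transfer differ together between DKO and the transferred groups. The labels give all WT libraries as male, DKO replicate 2, TX1 replicate 3 and TX2 replicates 5 to 7 as female, and DKO replicates 4 and 5 as young; no ages are given in the sources used here. Nothing in the labels says which libraries came from separate donors, so p-values measure the spread between these libraries. Some libraries of a group were far more alike than others. The chi-square statistic per gene between 2 libraries, lower where they are more alike, was 8.34 for DKO replicates 4 and 5. It was 49.9 to 147 for other DKO pairs, and 6.50 for TX2 replicates 1 and 2.

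Glycolysis splits glucose into pyruvate in the cytosol, and lactate dehydrogenase turns pyruvate into lactate, which monocarboxylate transporters carry across the membrane. Pyruvate that enters mitochondria is oxidised by pyruvate dehydrogenase and then by the TCA cycle, in which isocitrate dehydrogenases make 2-oxoglutarate. TET enzymes oxidise 5-methylcytosine in DNA and use 2-oxoglutarate as a co-substrate, and succinate and fumarate, made later in the cycle, can inhibit them. Resting T cells rely mainly on mitochondrial oxidation, and activated T cells are known to take up more glucose and to raise glycolysis.

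Reads in genes numbered 26918548 to 30730877 per library. Tet3 fell from 198 ± 18.6 CPM (SD, n = 5; CPM are a gene's reads scaled to equal library totals) in WT to 94.2 ± 7.7 in DKO, and Tet2 was at 43.9 ± 8.78 and 47.2 ± 6.01 CPM, which does not check the deletion, since reads in its deleted part were not counted apart. All 10 proliferation markers rose from WT to DKO, and their summed level was 354 to 482 CPM in WT, 885 to 2168 in DKO, 955 to 3173 in TX1 and 2205 to 3106 in TX2. The summed level of 5 T cell markers was 5198 to 6318 CPM in WT, 4314 to 5671 in DKO, 1674 to 4161 in TX1 and 1667 to 3852 in TX2, with none at 0 in any group. Some markers of other cells moved with the groups. The summed level of 4 NK cell markers was 21.4 to 36.7 CPM in WT, 54.6 to 179 in DKO, 68.6 to 319 in TX1 and 76.5 to 447 in TX2, with Klra8 at 0 in TX1 and TX2, and 2 of the 3 tested rose in DKO. That of 2 CD8 T cell markers was 30.7 to 40.5 CPM in WT, 0.216 to 6.39 in DKO and at most 0.412 after transfer, with Cd8b1 at 0 in TX1. That of 5 B cell markers was 4.61 to 6.35 CPM in WT, 12.4 to 110 in DKO, 0.245 to 59.3 in TX1 and 0.802 to 147 in TX2, and 1 of the 3 tested rose in DKO. Stroma markers summed to 253 to 311 CPM in WT, 236 to 301 in DKO, 163 to 238 in TX1 and 108 to 291 in TX2. Macrophage and monocyte markers reached at most 134 CPM and neutrophil markers 139 CPM in any library, and erythroid markers 547 CPM in a TX2 library. The part of proliferation and of these other cells in the results below was not tested. In the T cell receptor tables, TX2 replicates 1 to 4 carried one dominant alpha and beta chain pair (95.1 to 95.7% of alpha chain reads) and TX2 replicates 5 to 7 another (83.2 to 88.1%), which was also the dominant pair of TX1 replicate 3. Libraries of one clone are not independent, and TX2 therefore holds few clones. Each TX1 library was led by a different alpha chain, at 83.2, 75.4, 84.1 and 88.1% of reads. The comparison of TX2 with TX1 thus has the clone of TX1 replicate 3 on both sides. DKO replicate 2 was also led by a single alpha chain, at 77.9% of reads, against 3.86 to 12.5% in the other DKO libraries.

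From WT to DKO, 23 of the 43 genes rose and 3 fell, where 22.7% of the 13700 genes tested rose and 20.7% fell (43.4% in either direction; edgeR's quasi-likelihood test, Benjamini-Hochberg adjusted p below 0.05). The median log2 fold change was 0.32 over the 43 genes and -0.013 over all genes. Among the 20 genes of transport and glycolysis 12 rose and only Ldhb fell; among the 23 of pyruvate dehydrogenase and the TCA cycle 11 rose and Pdk1 and Idh2 fell. Levels did not overlap between the groups for 23 of the 43 genes, against 34.1% of all genes. Within replicates 1 to 3 of WT and DKO alone, 21 of the 43 genes and 28.0% of all genes passed, and within replicates 4 and 5 alone, which hold the DKO libraries labelled young, 13 and 22.4%. The summed level of the transport and glycolysis genes was 3579 to 4564 CPM in WT, 6052 to 8326 in DKO, 6645 to 9096 in TX1 and 9168 to 12440 in TX2. That of the pyruvate dehydrogenase and TCA genes was 2749 to 2983, 2928 to 3115, 2699 to 3563 and 3153 to 3662 CPM in the same order, so these sums overlapped between WT and DKO. This sum includes Pdk1, which fell. The TCA parts alone did not overlap between WT and DKO. Citrate to 2-oxoglutarate summed to 644 to 714 CPM in WT and 767 to 860 in DKO. From 2-oxoglutarate to succinate the sums were 700 to 724 and 751 to 828 CPM, and from succinate to oxaloacetate 776 to 922 and 955 to 1084 CPM.

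Against DKO, 20 genes rose and 3 fell in TX2, where 25.6% of 14034 genes rose and 26.1% fell (51.7% in all), and the median log2 fold change was 0.27 against -0.006 over all genes. Levels in TX2 and DKO did not overlap for 15 of the 43, against 33.3% of all genes. With DKO replicates 4 and 5 alone against TX2, 13 of the 43 genes and 27.7% of all genes passed. In TX1, 4 genes rose and 1 fell against DKO, where 11.7% of 13954 genes rose and 7.97% fell (19.7% in all). Between TX2 and TX1, 0 of the 43 genes passed the test in edgeR, where 0.0431% of 13907 genes did; 14 had an unadjusted p below 0.05 (12 higher and 2 lower in TX2), as did 21.5% of all genes, and DESeq2 called 4 of the 43 and 8.95% of all genes. Levels did not overlap between TX2 and TX1 for 2 of the 43, Eno1 and Idh1, against 3.93% of all genes. The comparisons with DKO share the DKO libraries, and WT to DKO and DKO to TX2 are not independent. Mean levels were higher at each step from WT to DKO, TX1 and TX2 for 23 of the 43 genes and lower at each step for Ldhb and Idh2, where 17.4% and 16.6% of 13288 genes with a mean of at least 1 CPM in any group did. In bulk RNA, fewer cells of a type and less RNA per cell cannot be told apart.

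**Figure D1:**
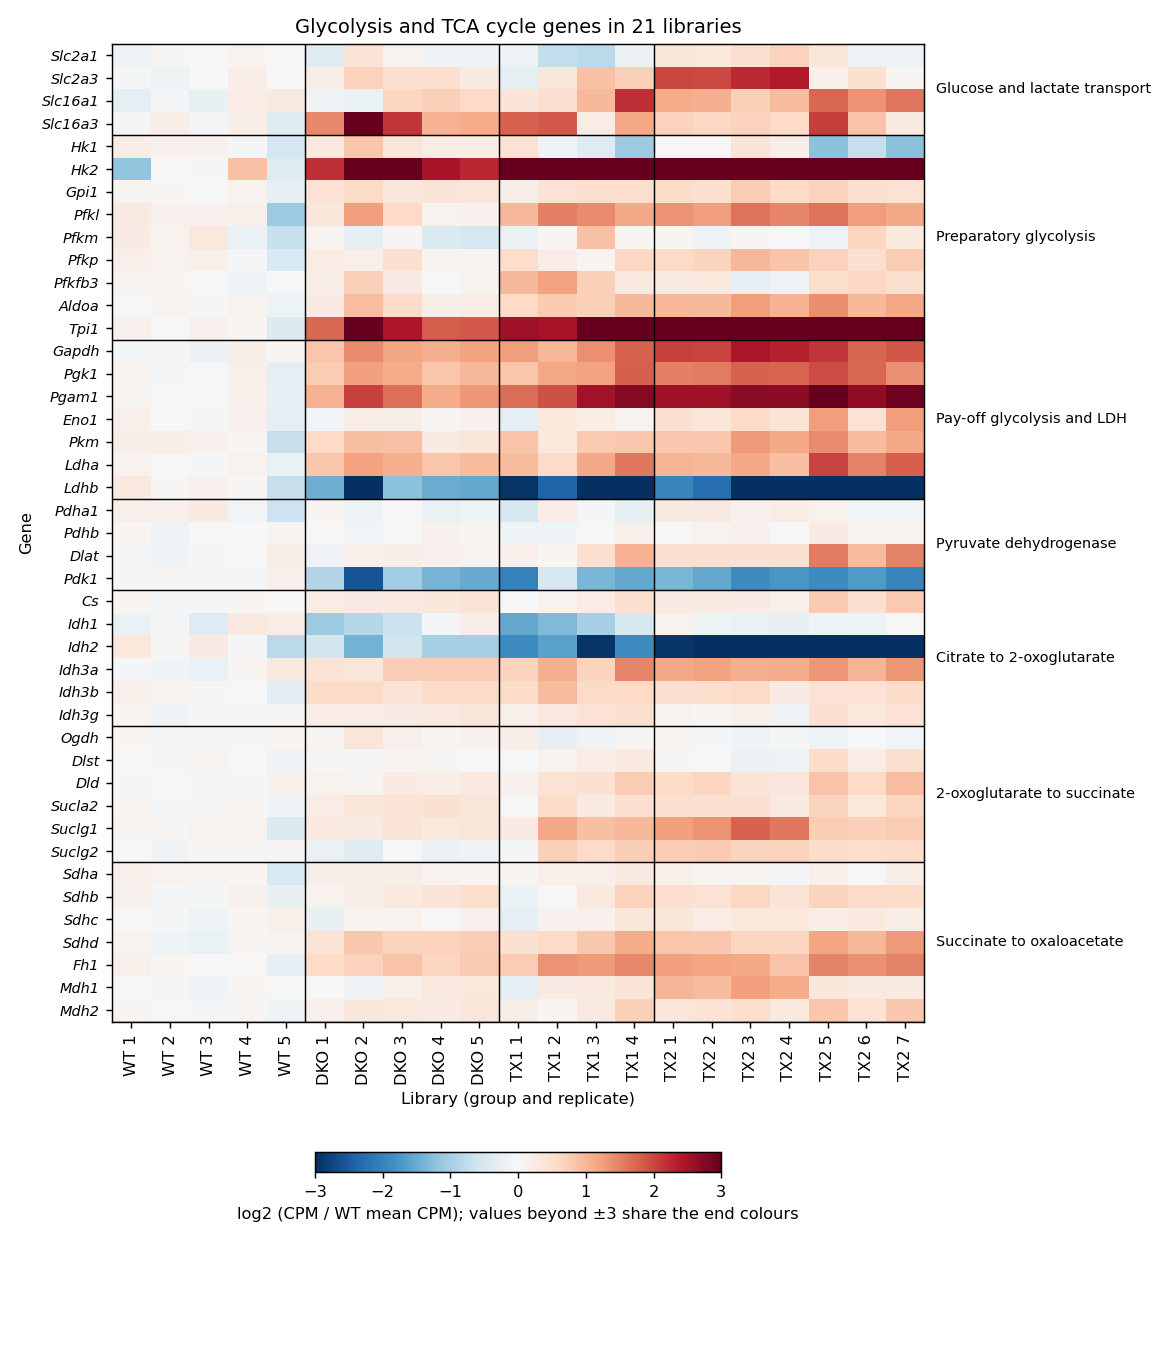
Colour shows log2 of each library's CPM over the WT mean for the 43 genes (rows, grouped by role) in the 21 libraries (columns); values beyond 3 in either direction share the end colours. Hk2 and Tpi1 are the deepest red rows in the DKO and transferred libraries, and Ldhb, Pdk1 and Idh2 are the blue rows.

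**Figure D2:**
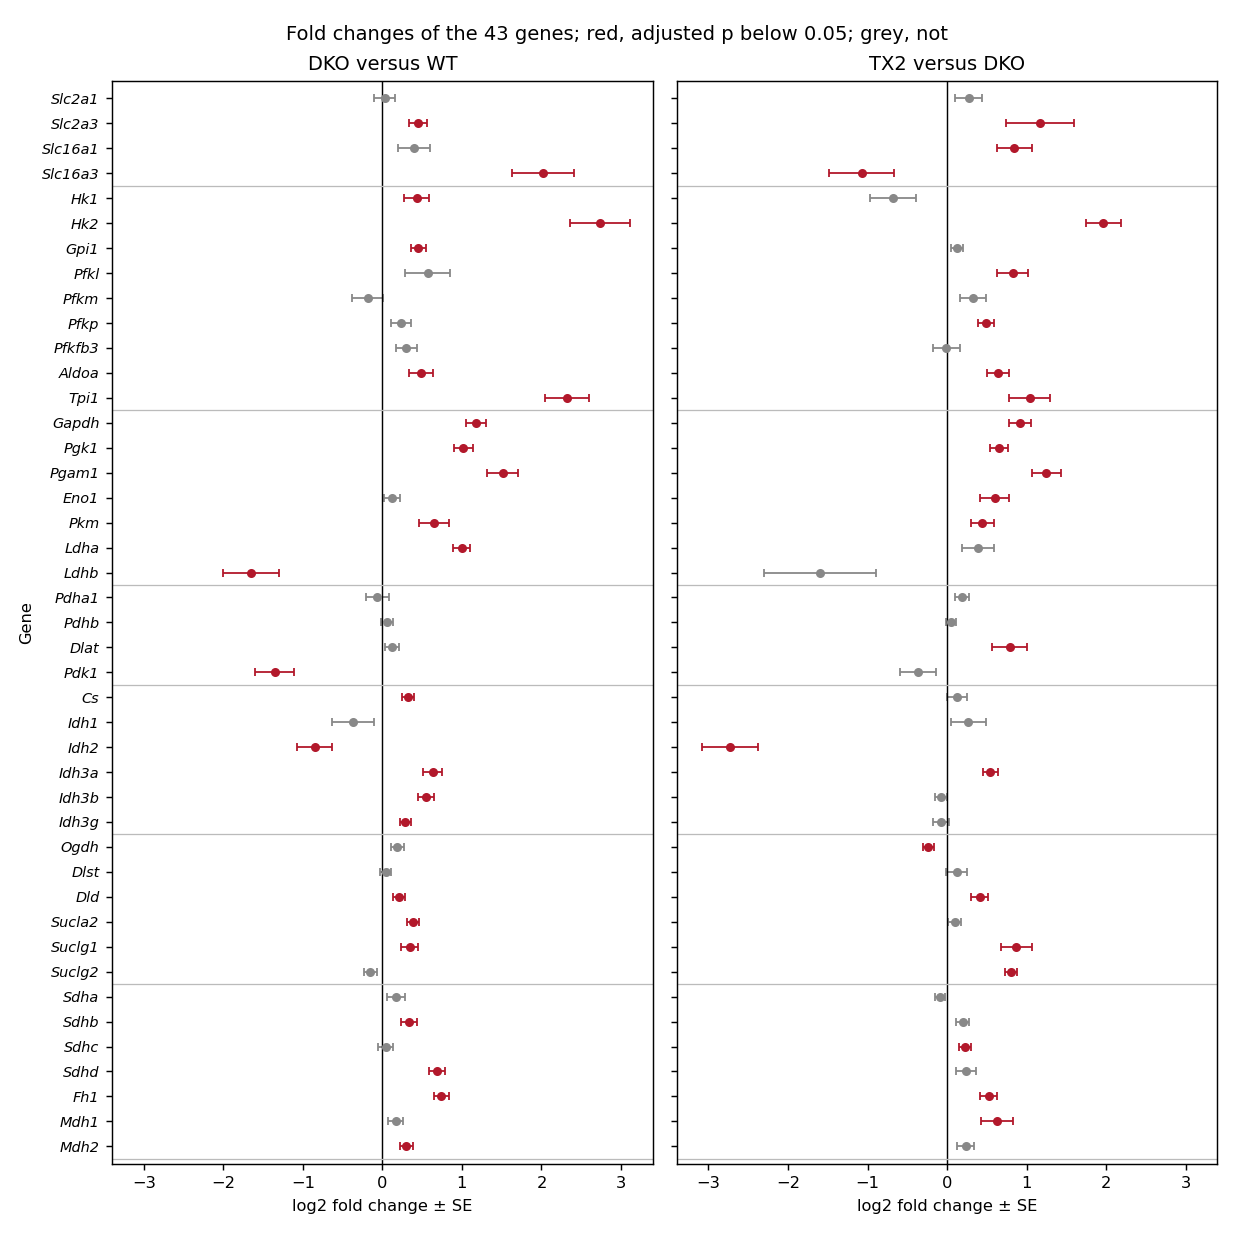
Points show the log2 fold change and bars its standard error for the 43 genes in DKO against WT and in TX2 against DKO, both fitted in edgeR; red points passed the adjusted p of 0.05. Of the 43 genes, 23 rose and 3 fell in the left panel and 20 rose and 3 fell in the right panel.

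Of the 4 glucose and lactate transporters, 2 rose and none fell in DKO over WT, and 2 rose and Slc16a3 fell in TX2 over DKO. This count and the counts by role below stand beside the shares of all genes. In DKO over WT 22.7% rose and 20.7% fell, and in TX2 over DKO 25.6% rose and 26.1% fell. Slc2a1 (GLUT1, a glucose transporter) passed the test in no comparison, with group means of 46.7 ± 2.43 CPM in WT, 46.9 ± 9.68 in DKO and 57.4 ± 11.9 in TX2. Slc2a3 (GLUT3, a glucose transporter of high affinity) was at 52.1, 48.8, 53.8, 62.5 and 53.7 CPM in the 5 WT libraries and 61.7, 88.1, 74.5, 75.1 and 64.9 CPM in the 5 DKO libraries. It rose by 0.45 ± 0.12 (log2 fold change ± SE, adjusted p = 0.00908), with 1 DKO library below the highest WT library. In TX2, Slc2a3 ran from 56.8 through a median of 215 to 283 CPM and rose over DKO by 1.17 ± 0.43 (adjusted p = 0.0386). The 4 high TX2 libraries, at 215 CPM and above, were replicates 1 to 4, and the other 3 lay within the DKO range or below it. With the TX2 libraries 5 to 7 alone, the Slc2a3 change from DKO was -0.16 ± 0.14 (adjusted p = 0.379), and leaving out any of 9 single libraries also ended the call (log2 fold change 1.00 to 1.33 over all single libraries left out).

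Slc16a1 (MCT1), a transporter of lactate and pyruvate, did not pass the test in DKO and rose in TX2 over DKO by 0.85 ± 0.22 (adjusted p = 0.00611). Its level was 33.7, 31.7, 57.0, 59.3 and 55.1 CPM in the DKO libraries and ran from 60.0 through 78.2 to 119 CPM in TX2, so the groups did not overlap. Slc16a3 (MCT4), known for lactate export, was at 3.30, 3.86, 3.26, 3.85 and 2.65 CPM in WT. It was at 9.15, 29.1, 15.0, 7.03 and 7.33 CPM in DKO, each above every WT library, and rose by 2.02 ± 0.39 (adjusted p = 0.00184). In TX2 it fell against DKO, by -1.07 ± 0.41 on the log2 scale (adjusted p = 0.044), from a DKO group that included the 29.1 CPM of replicate 2. Without DKO replicate 2 the change was -0.57 (adjusted p = 0.197), and the call was also lost without DKO replicate 3 or without any 1 of TX2 replicates 1, 2, 3, 4, 6 and 7 (adjusted p 0.0698 to 0.0829).

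Of the 9 genes of the preparatory phase, in which glucose is phosphorylated and split, 5 rose and none fell in DKO over WT, and 5 rose and none fell in TX2 over DKO. Hk2 encodes hexokinase 2, the inducible and mitochondria-binding form of the enzyme that traps glucose in the cell. Hk2 stood at 0.652, 1.51, 1.42, 2.75 and 1.13 CPM in WT and at 6.85, 14.2, 13.0, 8.26 and 7.10 CPM in DKO. It was at 28.1, 29.4, 21.8 and 32.5 CPM in TX1 and ran from 29.4 through 41.7 to 45.4 CPM in TX2. WT, DKO and the transferred groups did not overlap with each other, while TX1 and TX2 did. The log2 fold change of Hk2 was 2.74 ± 0.38 in DKO over WT (adjusted p = 0.000266), 1.52 ± 0.26 in TX1 over DKO (adjusted p = 0.00854) and 1.96 ± 0.22 in TX2 over DKO (adjusted p = 3.15e-05). The Hk2 calls of DKO against WT and of both transfers against DKO held with each single library left out.

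The promoter of Hk2 is shown because this gene had the largest rise of the 43. The 250 bases before its RefSeq start lie on GRCm38 at chr6:82774455-82774704 on the minus strand. Capitals mark the letters ACGTG, the core of the site bound by hypoxia-inducible factors, on either strand.
Hk2: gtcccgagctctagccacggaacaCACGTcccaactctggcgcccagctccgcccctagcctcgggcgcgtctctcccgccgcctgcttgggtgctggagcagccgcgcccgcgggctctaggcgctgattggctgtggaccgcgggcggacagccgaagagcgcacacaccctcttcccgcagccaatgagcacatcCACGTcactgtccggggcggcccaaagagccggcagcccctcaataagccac
RefSeq promoters were matched for 40 of the 43 genes, with 58 starts in all; Slc2a3, Idh3a and Sdhc are named only. ACGTG on either strand was found before 24 of the 58 starts (41.4%) and before 16.6% of 32851 starts of all genes. GCGTG was found in 53.4% and 28.2%, and CACGTG, the site of MYC and related factors, which contains ACGTG, in 12.1% and 6.02%. Overlapping starts of 1 gene, Ogdh, supply 6 of the 24 starts with ACGTG and 3 of the 7 with CACGTG. Counted once per gene, ACGTG was found for 16 of 40 genes (40.0%) against 18.5% of 27025 genes, GCGTG for 62.5% against 30.9%, and CACGTG for 12.5% against 6.86%. All of these letters hold a CpG, and CpG was also more frequent in these promoters, with a median of 16.5 per 250 bases against 6 over all. The starts of all genes were not limited to genes expressed in these libraries, whereas all 43 genes were expressed. The part of base composition and of expression in these shares was not tested. The motifs and the promoters shown were chosen after the expression values were seen. Hif1a, a subunit of the hypoxia-inducible factor, rose from 188 ± 60 to 523 ± 244 CPM in DKO (adjusted p = 0.00194) and fell in TX2 to 320 ± 82 (log2 fold change -0.73, adjusted p = 0.0263). The Hif1a fall was lost without DKO replicate 2 (-0.39, adjusted p = 0.081) and without TX2 replicate 1, 2 or 6 (adjusted p 0.0504 to 0.0524).

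The other hexokinase, Hk1, is the form expressed in most tissues. It was at 214, 203, 204, 181 and 131 CPM in WT and at 230, 331, 241, 218 and 219 CPM in DKO, with no overlap and 1 high DKO library. Its rise of 0.43 ± 0.16 (adjusted p = 0.0477) was lost with any single library left out (adjusted p 0.0523 to 0.103). Tpi1 (triosephosphate isomerase) was at 57.9, 52.7, 57.3, 55.9 and 39.6 CPM in WT and at 173, 467, 282, 186 and 188 CPM in DKO, with every DKO library above every WT library. It rose by 2.32 ± 0.28 (adjusted p = 0.000131), and in TX2, where it ran from 433 through 514 to 687 CPM, by a further 1.04 ± 0.26 over DKO (adjusted p = 0.00512). DKO replicate 2 reached into the TX2 range.

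Gpi1, which makes fructose 6-phosphate, rose in DKO by 0.45 ± 0.09 (adjusted p = 0.00306), from 628 ± 57.9 CPM, and did not pass against DKO in TX2. Aldoa (aldolase A) was at 410, 438, 401, 445 and 375 CPM in WT and 494, 787, 617, 472 and 485 CPM in DKO. It rose by 0.49 ± 0.15 in DKO (adjusted p = 0.0211) and by 0.64 ± 0.14 in TX2 over DKO (adjusted p = 0.0025). DKO and WT did not overlap for Aldoa. The phosphofructokinases, which catalyse the committed step, passed, among the 4 comparisons of groups, only in TX2 over DKO: Pfkl (liver type) rose by 0.83 ± 0.19 (adjusted p = 0.00386) and Pfkp (platelet type) by 0.49 ± 0.10 (adjusted p = 0.00189). Pfkl was at 67.2, 127, 81.5, 57.3 and 58.7 CPM in DKO and ran from 118 through 137 to 166 CPM in TX2, where DKO replicate 2 was the only DKO library in the TX2 range. Pfkm (muscle type) and Pfkfb3, which makes an activator of phosphofructokinase, passed in none of these 4 comparisons of groups, with WT means of 17.5 ± 4.41 and 62.2 ± 3.65 CPM.

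The pay-off phase of glycolysis regains ATP and ends in pyruvate. Of its 7 genes, counted with the lactate dehydrogenases, 5 rose and Ldhb fell in DKO over WT, and 5 rose and none fell in TX2 over DKO. Gapdh, which makes the NADH of glycolysis, was at 700, 686, 632, 807 and 740 CPM in WT and 1262, 1907, 1625, 1509 and 1650 CPM in DKO. It was at 1713, 1420, 1843 and 2415 CPM in TX1 and ran from 2390 through 2936 to 3895 CPM in TX2. Each DKO library was above every WT library and each TX2 library above every DKO library. The Gapdh rise was 1.18 ± 0.12 in DKO over WT (adjusted p = 6.23e-05) and 0.92 ± 0.14 in TX2 over DKO (adjusted p = 0.000195). Gapdh is often used as a reference for other genes, and its mean level here was 713 ± 65.1 CPM in WT and 3059 ± 519 CPM in TX2.

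Pgk1, which makes the first ATP of this phase, rose by 1.02 ± 0.12 in DKO (adjusted p = 0.000115) and by 0.65 ± 0.12 in TX2 over DKO (adjusted p = 0.000687). It was at 112, 101, 104, 115 and 86.4 CPM in WT, at 176, 245, 226, 184 and 202 CPM in DKO, and from 267 through 344 to 403 CPM in TX2, with no overlap between WT, DKO and TX2. In TX1 Pgk1 was at 184 to 361 CPM, which overlapped both DKO and TX2. Pgam1 (phosphoglycerate mutase) was at 20.8, 19.3, 19.5, 21.96 and 16.6 CPM in WT and at 40.5, 81.9, 61.5, 42.7 and 48.5 CPM in DKO. It ran from 114 through 125 to 176 CPM in TX2, again with no overlap between WT, DKO and TX2. The Pgam1 rises were 1.51 ± 0.19 (adjusted p = 0.000183) and 1.25 ± 0.19 (adjusted p = 0.000203). Eno1 (enolase) did not pass in DKO and rose in TX2 over DKO by 0.60 ± 0.18 (adjusted p = 0.0149), with TX2 replicates 5 and 7 at 1391 and 1388 CPM and the other 5 at 756 to 866 CPM. Pkm (pyruvate kinase) rose by 0.65 ± 0.19 in DKO (adjusted p = 0.0162) and by 0.44 ± 0.14 in TX2 over DKO (adjusted p = 0.022); the latter was lost without DKO replicate 4 (0.37, adjusted p = 0.0567) or 5 (0.38, adjusted p = 0.0603). Since reads with more than 1 matching place do not enter these counts, the levels of genes with near-identical copies in the genome, such as Gapdh, Pgk1 and Eno1, are uncertain.

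The lactate dehydrogenase subunits moved in opposite directions. Ldha, the subunit that predominates in glycolytic cells, was at 517, 476, 470, 519 and 419 CPM in WT and at 843, 1104, 1000, 852 and 926 CPM in DKO, a rise of 1.00 ± 0.11 (adjusted p = 7.42e-05) with no overlap. Ldhb, the subunit common in oxidative tissues, was at 41.9, 35.2, 37.7, 35.4 and 21.4 CPM in WT and at 12.4, 2.77, 14.6, 12.2 and 11.8 CPM in DKO. It fell, with a log2 fold change of -1.66 ± 0.35 (adjusted p = 0.0033), and every DKO library was below every WT library. In TX1 Ldhb was at 4.48, 6.52, 2.33 and 3.76 CPM, and in TX2 it ran from 0.197 through 3.02 to 8.66 CPM; neither passed against DKO (adjusted p = 0.0836 and 0.078). The promoter of Ldhb is shown with its CpG sites, the substrate context of TET enzymes, in capitals (chr6:142507958-142508207, GRCm38, minus strand, from RefSeq). DNA methylation was not measured in these libraries.
Ldhb: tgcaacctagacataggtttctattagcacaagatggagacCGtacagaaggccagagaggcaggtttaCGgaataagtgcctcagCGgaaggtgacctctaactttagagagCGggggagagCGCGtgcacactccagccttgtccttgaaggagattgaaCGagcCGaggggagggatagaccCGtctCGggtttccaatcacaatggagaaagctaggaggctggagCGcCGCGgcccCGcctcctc

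**Figure D3:**
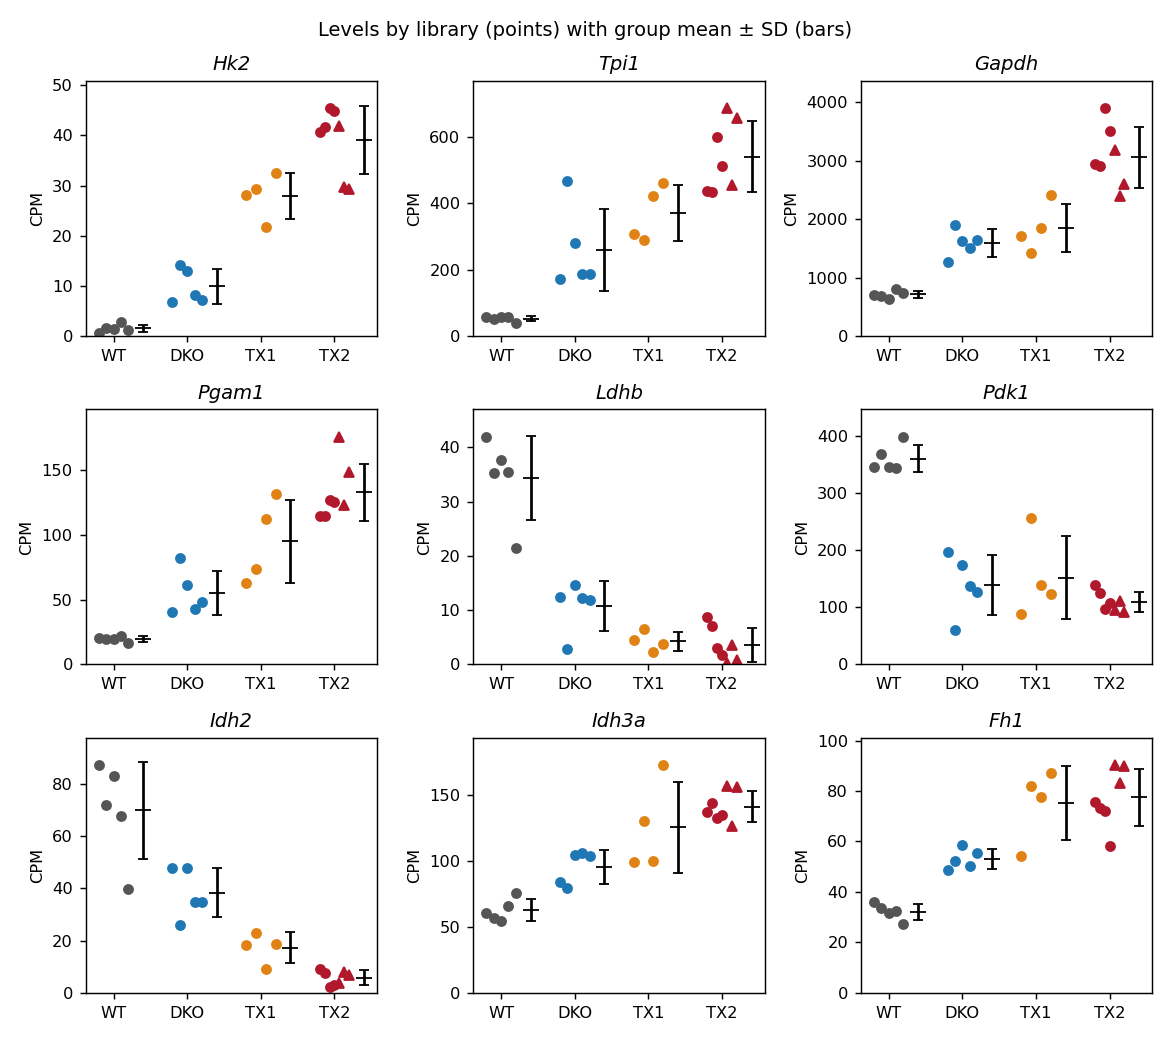
CPM of 9 of the genes in each library (points; triangles mark TX2 replicates 5 to 7) with the group mean and SD (bars). Hk2, Tpi1, Gapdh and Pgam1 lie higher in every DKO library than in any WT library, and Ldhb, Pdk1 and, but for WT replicate 5, Idh2 lie lower.

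Of the 4 pyruvate dehydrogenase genes, only Pdk1, 1 of the inhibitory kinases, passed the test in DKO against WT. Pdk1, which phosphorylates and inactivates the complex, was at 346, 369, 347, 345 and 399 CPM in WT and at 197, 60.3, 174, 138 and 127 CPM in DKO. It fell, with a log2 fold change of -1.36 ± 0.24 (adjusted p = 0.00121), and the groups did not overlap. Pdk1 ran from 91.8 through 107 to 140 CPM in TX2, within the DKO range. Pdha1 and Pdhb, the subunits of the first enzyme of the complex, passed in none of the comparisons of WT, DKO, TX1 and TX2, with WT means of 125 ± 27.2 and 85.7 ± 5.28 CPM. Dlat, its second enzyme, rose in TX2 over DKO by 0.79 ± 0.22 (adjusted p = 0.0101), from 46.8, 56.2, 57.7, 55.6 and 54.5 CPM to between 69.0 and 147 CPM with a median of 71.8, without overlap.

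Among the genes from citrate to 2-oxoglutarate, 4 rose and Idh2 fell in DKO. Cs (citrate synthase), the entry enzyme, rose by 0.32 ± 0.07 (adjusted p = 0.00523), from 324, 299, 298, 324 and 317 CPM to 363, 369, 382, 398 and 411 CPM, with no overlap. The 3 subunits of the NAD-dependent isocitrate dehydrogenase, which drives the cycle forward, rose together in DKO: Idh3a by 0.63 ± 0.12 (adjusted p = 0.00162), Idh3b by 0.55 ± 0.10 (adjusted p = 0.00125) and Idh3g by 0.29 ± 0.07 (adjusted p = 0.00665). Idh3a was at 60.2, 56.7, 54.6, 65.5 and 75.2 CPM in WT and 83.6, 79.3, 104, 106 and 104 CPM in DKO. In TX2 it ran from 126 through 136 to 157 CPM and rose over DKO by 0.54 ± 0.10 (adjusted p = 0.000594), with no overlap at either step, whereas Idh3b and Idh3g did not pass. Idh1, the cytosolic NADP-dependent form, was low throughout, at 6.43 ± 1.27 CPM in WT and 5.99 ± 0.501 in TX2, and passed in no comparison.

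Idh2, the mitochondrial NADP-dependent isocitrate dehydrogenase, fell in DKO against WT and in both transferred groups against DKO. It was at 87.1, 71.8, 83.2, 67.6 and 39.7 CPM in WT and at 48.0, 26.1, 47.6, 34.8 and 34.9 CPM in DKO, overlapping in WT replicate 5. It was at 18.4, 23.1, 9.12 and 18.8 CPM in TX1, and in TX2 it ran from 2.13 through 6.68 to 9.30 CPM. Every TX1 library was below every DKO library, and TX2 overlapped TX1 in 1 TX1 library, replicate 3. The log2 fold change was -0.85 ± 0.22 in DKO against WT (adjusted p = 0.0092), -1.13 ± 0.29 in TX1 against DKO (adjusted p = 0.0265) and -2.73 ± 0.35 in TX2 against DKO (adjusted p = 7.7e-05). Between TX2 and TX1 it was -1.58 ± 0.41 (adjusted p = 0.0943). Per kilobase of exon, Idh2 stood at 27.0 ± 7.21 CPM in WT and 2.26 ± 1.09 in TX2, and Idh3a at 12.3 ± 1.63 and 27.8 ± 2.3, so the order of these levels was opposite in the 2 groups. The Idh2 call in TX1 was lost without DKO replicate 1, 3, 4 or 5 or TX1 replicate 4 (adjusted p 0.0522 to 0.0604), while that in TX2 held with each single library left out. The promoter of Idh2 is shown with its CpG sites in capitals, because this gene had the largest fall of the 43 from DKO to TX2 (chr7:80115351-80115600, GRCm38, minus strand, from RefSeq).
Idh2: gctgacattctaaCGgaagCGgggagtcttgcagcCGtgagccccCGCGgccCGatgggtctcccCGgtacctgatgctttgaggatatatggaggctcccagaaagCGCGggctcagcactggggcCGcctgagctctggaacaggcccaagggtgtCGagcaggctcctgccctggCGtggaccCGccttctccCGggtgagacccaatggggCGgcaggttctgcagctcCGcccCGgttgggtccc

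From 2-oxoglutarate to succinate, 3 of 6 genes rose in DKO over WT, and 3 rose and Ogdh fell in TX2 over DKO. Of all genes, 43.4% and 51.7% passed in these 2 comparisons in either direction. Ogdh, the first enzyme of the 2-oxoglutarate dehydrogenase complex, which consumes the co-substrate of TET enzymes, was at 386, 473, 408, 388 and 404 CPM in DKO and from 337 through 355 to 384 CPM in TX2. Its log2 fold change was -0.24 ± 0.07 (adjusted p = 0.0134), a small difference with no overlap. In WT, Ogdh was at 358 to 380 CPM, within the TX2 range. Dlst, the second enzyme of that complex, passed in neither comparison, and Dld, the third enzyme, shared with pyruvate dehydrogenase, rose by 0.21 ± 0.08 in DKO (adjusted p = 0.0428) and by 0.41 ± 0.11 in TX2 over DKO (adjusted p = 0.0062). The Dld call in DKO was lost without any 1 of WT replicates 1 to 4 or DKO replicates 3 to 5 (adjusted p 0.0593 to 0.105).

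Succinyl-CoA synthetase makes succinate together with ATP or GTP. Its alpha subunit Suclg1 was at 65.3, 63.0, 66.6, 65.9 and 46.5 CPM in WT and 75.5, 73.2, 80.0, 77.1 and 78.5 CPM in DKO, a rise of 0.34 ± 0.10 (adjusted p = 0.0202) with no overlap. In TX2 it ran from 101 through 144 to 209 CPM, above every DKO library, and rose by 0.87 ± 0.19 (adjusted p = 0.00266). Sucla2, the ATP-forming beta subunit, rose in DKO by 0.39 ± 0.08 (adjusted p = 0.0028) and did not pass in TX2. Suclg2, the GTP-forming beta subunit, did not pass in DKO, where it was at 34.7, 31.3, 40.2, 35.3 and 36.6 CPM, and was at 57.4 to 69.6 CPM with a median of 63.9 in TX2. It rose there by 0.80 ± 0.08 (adjusted p = 1.27e-05), the smallest adjusted p of the 43 genes in that comparison.

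Of the 7 genes from succinate to oxaloacetate, 4 rose in DKO and 3 rose in TX2 over DKO. None fell, and 43.4% and 51.7% of all genes passed in either direction. Succinate dehydrogenase sits in the inner mitochondrial membrane and also serves the respiratory chain. Its membrane anchor Sdhd was at 54.3, 46.5, 44.3, 53.7 and 54.4 CPM in WT and 67.6, 88.1, 80.7, 81.5 and 84.5 CPM in DKO, a rise of 0.69 ± 0.10 (adjusted p = 0.000396) with no overlap. The iron-sulphur subunit Sdhb rose by 0.33 ± 0.10 in DKO (adjusted p = 0.0238), a call lost without WT replicate 3 (adjusted p = 0.0566) or DKO replicate 5 (adjusted p = 0.0567). Sdha, the flavoprotein subunit, was at 249 ± 38 CPM in WT and passed in no comparison of the 4 groups, and Sdhc, the other anchor, rose only in TX2 over DKO, by 0.23 ± 0.07 (adjusted p = 0.0177).

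Fh1 (fumarate hydratase), which removes fumarate, was at 36.0, 33.6, 31.7, 32.3 and 27.3 CPM in WT and 48.7, 52.3, 58.5, 50.2 and 55.6 CPM in DKO. The groups did not overlap, and the rise was 0.74 ± 0.10 (adjusted p = 0.000183). In TX2 Fh1 ran from 58.2 through 75.7 to 90.2 CPM and rose over DKO by 0.52 ± 0.11 (adjusted p = 0.00163), where DKO replicate 3, at 58.5 CPM, lay just above the lowest TX2 library. Mdh1, the cytosolic malate dehydrogenase, rose in TX2 over DKO by 0.63 ± 0.20 (adjusted p = 0.0182). With TX2 replicates 5 to 7 alone the Mdh1 change was 0.18 (adjusted p = 0.207). Mdh2, the mitochondrial form, rose in DKO over WT by 0.30 ± 0.08 (adjusted p = 0.0117) and did not pass in TX2 over DKO.

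The comparison of TX1 with DKO rested on few libraries. The 5 calls were rises of Hk2, Suclg1 (0.56 ± 0.17, adjusted p = 0.0466), Suclg2 (0.72 ± 0.17, adjusted p = 0.0203) and Fh1 (0.52 ± 0.15, adjusted p = 0.0377), and the fall of Idh2. Suclg1 was at 72.9, 138, 115 and 121 CPM in TX1, Suclg2 at 38.7, 65.6, 60.2 and 66.7, and Fh1 at 54.2, 82.0, 77.7 and 87.3. In all 3 genes TX1 replicate 1 was the lowest TX1 library; it lay within the DKO range for Suclg2 and Fh1 and just below it for Suclg1. The calls of Suclg1 and Fh1 were each lost in 8 of the 9 fits that left out a single library, all but that without TX1 replicate 1 (adjusted p 0.0709 to 0.116 and 0.0543 to 0.0917), and that of Suclg2 without TX1 replicate 2 or 3 (adjusted p 0.0551 and 0.0572). Within replicates 1 to 3 of both groups, and with the DKO libraries labelled young left out, edgeR called 0 of the 43 genes, with 4 and 5 at an unadjusted p below 0.05, and 0 and 3 of all genes. Levels did not overlap between TX1 and DKO for 2 genes, Hk2 and Idh2, against 18.9% of all genes.

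Within TX2, the libraries labelled female (replicates 5 to 7) and male (replicates 1 to 4) are the same libraries as the 2 receptor clones. Sex, clone and donor, which the labels do not give, thus cannot be told apart. Each set holds a single clone, so p-values and standard errors between the sets measure only the spread between libraries of a clone. Of the 43 genes, 12 were higher and 5 lower in replicates 5 to 7, where 23.3% of 13920 genes were higher and 21.3% lower (44.6% in all). Levels did not overlap for 15 of the 43, against 51.6% of all genes. Among the lower genes, Slc2a3 was at 60.5, 74.7 and 56.8 CPM against 217, 215, 257 and 283 CPM in replicates 1 to 4, a log2 difference of -1.91 ± 0.15 (adjusted p = 0.000125). Hk1 was at 79.0, 115 and 78.8 CPM against 186, 189, 244 and 209 CPM (-1.18 ± 0.17, adjusted p = 0.00132). Mdh1 was at 172, 163 and 161 CPM against 274, 261, 316 and 293 CPM (-0.78 ± 0.09, adjusted p = 0.000537), and Suclg1 at 102, 101 and 104 CPM against 144, 157, 209 and 183 CPM (-0.76 ± 0.13, adjusted p = 0.0029). None of these 4 genes overlapped between the sets.

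Higher in replicates 5 to 7 were Dlat, at 147, 97.7 and 142 CPM against 70.5, 71.8, 69.0 and 69.7 CPM (0.88 ± 0.14, adjusted p = 0.00173), and Ldha, at 1947, 1345 and 1676 CPM against 970, 944, 1051 and 894 CPM (0.79 ± 0.12, adjusted p = 0.00195). Cs, Dlst and Slc16a1 were also higher, by 0.47 ± 0.09, 0.50 ± 0.10 and 0.60 ± 0.12 (adjusted p = 0.00422, 0.00515 and 0.00571). TX1 replicate 3, which carries the receptor of replicates 5 to 7, was at 99.6 CPM of Slc2a3, 144 of Hk1, 164 of Mdh1, 115 of Suclg1, 71.3 of Dlat and 1051 of Ldha. It lay nearer to replicates 5 to 7 in Slc2a3, Hk1, Mdh1, Suclg1 and Dlst (165 CPM). It lay nearer to replicates 1 to 4 in Dlat, Ldha, Cs (365 CPM) and Slc16a1 (71.2 CPM). In Slc2a3 and Mdh1 this was not particular to TX1 replicate 3, since every DKO library and TX1 replicates 1, 2 and 4 also lay nearer to replicates 5 to 7. These TX1 libraries, of other clones, were at 44.0, 70.2 and 88.7 CPM of Slc2a3 and 110, 160 and 176 CPM of Mdh1. In Hk1 and Suclg1 not all of them lay nearer to replicates 5 to 7. The single library TX1 replicate 3 allows no test. The calls of Pfkfb3, Eno1, Pdha1, Dld, Fh1 and Mdh2 between these sets were lost when single libraries were left out, in 2 to 6 of 7 fits each.

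**Figure D4:**
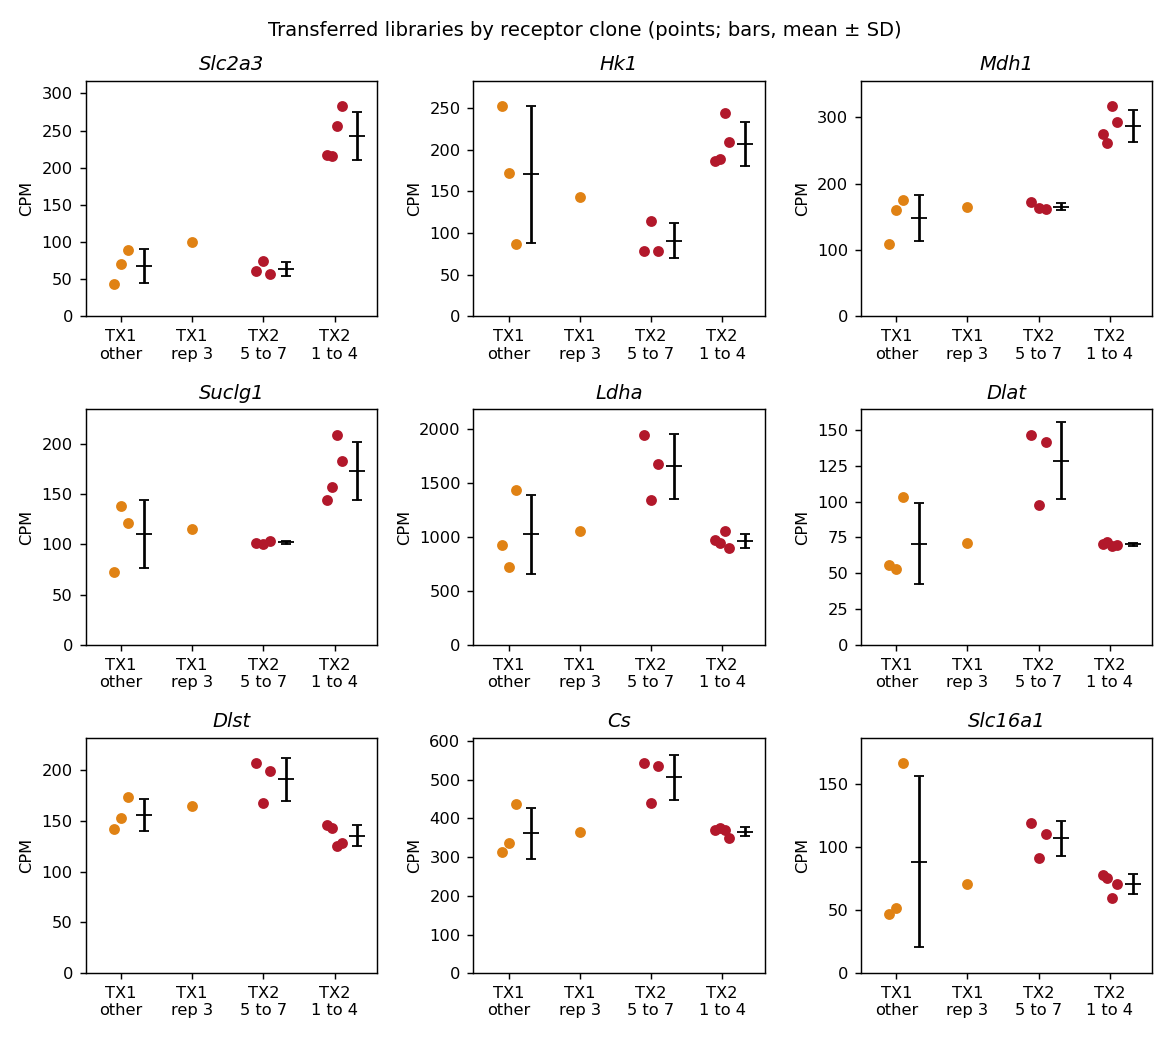
CPM of 9 genes in transferred libraries (points; bars, mean and SD where there is more than 1 library), set apart as TX1 replicates 1, 2 and 4, TX1 replicate 3, TX2 replicates 5 to 7 and TX2 replicates 1 to 4; TX1 replicate 3 and TX2 replicates 5 to 7 carry the same receptor. Slc2a3, Hk1, Mdh1 and Suclg1 are lower and Ldha, Dlat, Dlst, Cs and Slc16a1 higher in TX2 replicates 5 to 7 than in replicates 1 to 4.

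Shares between isoenzymes were computed on CPM per kilobase of exon and compared by 2-sided exact permutation tests, adjusted over 20 tests. The Hk2 share of hexokinases 1 and 2 was 1.16 ± 0.612% in WT, 5.31 ± 1.21% in DKO, 21.5 ± 9.2% in TX1 and 28.2 ± 7.96% in TX2. It rose in DKO over WT (adjusted p = 0.0265), TX1 over DKO (0.0397) and TX2 over DKO (0.0265). With each library taken as a unit, all were at the smallest p the tests can give (0.00794, 0.0159 and 0.00253 before adjustment). TX2 libraries of one clone are not independent units, so the p-values with TX2 in this section do not measure the spread between clones. The Ldhb share of lactate dehydrogenases A and B fell from 13.0 ± 1.99% in WT to 2.42 ± 1.07% in DKO (adjusted p = 0.0265) and to 0.731 ± 0.707% in TX2 (adjusted p = 0.0397). DKO replicate 2 had a Ldhb share of 0.526%, within the TX2 range. The Slc2a3 share of the 2 glucose transporters rose from 35.9 ± 1.88% to 43.1 ± 2.13% in DKO (adjusted p = 0.0265). The Slc16a3 share of the 2 lactate transporters rose from 7.35 ± 1.56% in WT to 19.7 ± 13.9% in DKO and fell to 5.86 ± 1.85% in TX2 (both adjusted p = 0.0265), with DKO replicate 2 at 43.4%. Leaving out a library raises the smallest p these tests can give. Where calls were then lost, the adjusted p was 0.0519 to 0.0909. For calls already at their smallest p, such losses say nothing about stability. The Ldhb and Slc16a3 calls of TX2 against DKO were not at theirs (p before adjustment 0.0152 and 0.00505 against 0.00253). A loss of these 2 calls need not come from that limit alone. The Pfkp share of phosphofructokinases passed in no comparison, at 44.6 ± 4.01% in WT and 43.2 ± 5.82% in DKO.

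**Figure D5:**
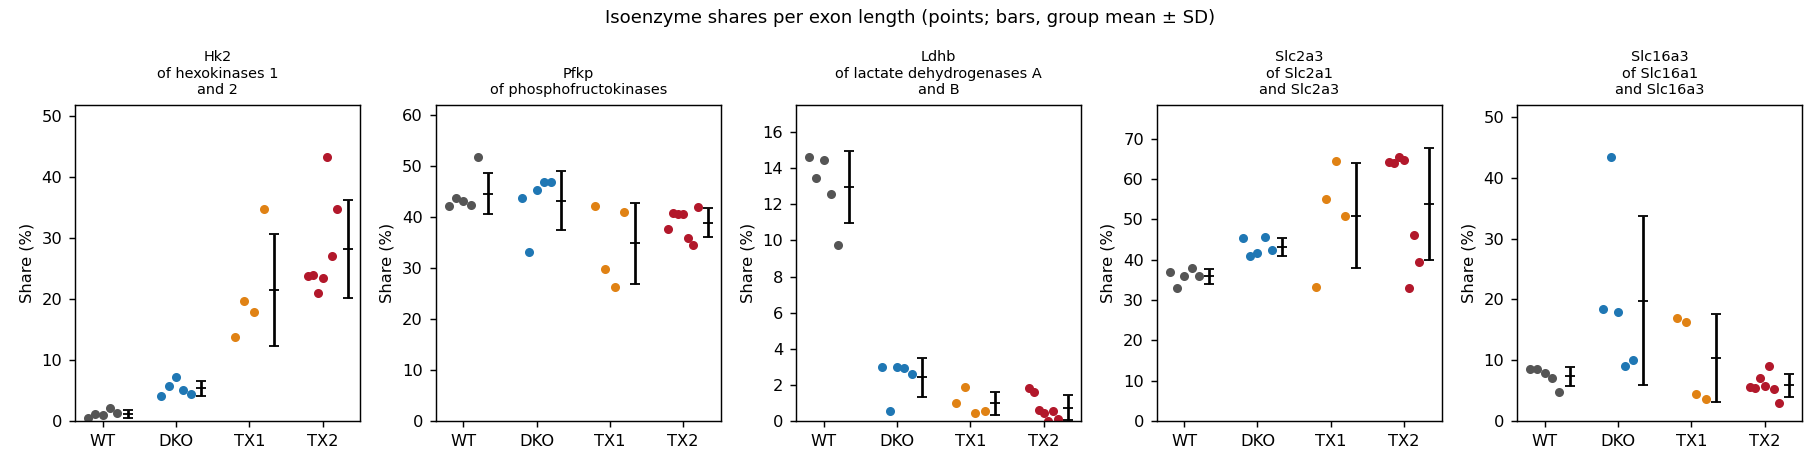
Share in percent of one isoenzyme among those named above each panel, on CPM per kilobase of exon, in each library (points) with the group mean and SD (bars). The Hk2 share lies at 0.433 to 2.12% in WT and at 21 to 43.2% in TX2, and the Ldhb share at 9.72 to 14.6% in WT and at 3.00% or less in every other library.

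Counts over neighbouring pathways stand beside 22.7% of all genes rising and 20.7% falling in DKO over WT, and 25.6% and 26.1% in TX2 over DKO. Of 14 measured genes of glutamine use and other 2-oxoglutarate reactions, 6 rose and 1 fell in DKO over WT, and of 15, 8 rose and 2 fell in TX2 over DKO. Among them Bcat1, a branched-chain aminotransferase that uses 2-oxoglutarate, was at 1.97 ± 0.687 CPM in WT and 12.0 ± 4.44 in DKO (2.63 ± 0.32, adjusted p = 0.000132). Bcat1 reached 90.6 ± 21.3 CPM in TX2, a further rise of 2.89 ± 0.26 over DKO (adjusted p = 8.01e-06). Of 22 other pyruvate and TCA cycle genes, 7 rose and 5 fell in DKO, and 10 rose and 1 fell in TX2 over DKO. Of 8 pentose phosphate genes, 6 rose and 1 fell in DKO and 5 rose in TX2 over DKO. Of 19 other glycolysis genes measured, 5 rose and 5 fell in DKO, and of 18, 2 rose and 7 fell in TX2 over DKO, among them Galm (galactose mutarotase), which went from 34.3 ± 7.77 to 0.563 ± 0.453 CPM (-5.95 ± 0.62, adjusted p = 1.89e-05). Of 18 commonly cited hypoxia genes outside glycolysis, 5 rose and 3 fell in DKO, with a median log2 fold change of -0.23, and of 17, 2 rose and 7 fell in TX2 over DKO, with a median of -0.34. The share called, 8 of 18, was near that of all genes in DKO (43.4%). In TX2 over DKO 51.7% of all genes passed. The shares called of the hypoxia, other glycolysis and other pyruvate and TCA cycle genes were near that. Myc, a regulator of growth and metabolism, did not pass in DKO over WT (adjusted p = 0.139) and rose in TX1 and TX2 over DKO, from 107 ± 28.8 to 352 ± 120 and 285 ± 89.8 CPM (adjusted p = 0.00864 and 0.000821).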

How the data were processed

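RNA of 21 libraries was measured by RNA sequencing. The deposited gene files hold counts, whole numbers of reads per Ensembl gene in 3 strand columns in the layout of STAR; per the submitters' processing notes, the builds were mm10 and GRCm38 and the tools DESeq2, STAR 2.7.5a and fastp 0.21.0. The unstranded column was taken, since the strand columns were near equal (the larger one with a median of 0.507 of their sum). The summary lines, which name no gene and hold 16.8 to 23.4% of reads, were left out. Of 55487 identifiers, 55227 had a symbol in GENCODE M21 (GRCm38). Receptor counts in the deposited clonotype tables, whose making is not given in the sources used, served only to name the clones.

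Comparisons were fitted separately by edgeR 4.0.16 under R 4.3.3 (filterByExpr, TMM factors, robust quasi-likelihood test) and adjusted by Benjamini-Hochberg over all genes tested. Calls are at an adjusted p below 0.05, tests are 2-sided, and errors of fold changes are standard errors. CPM use TMM factors over all 21 libraries. The fits were tested on simulated data. Alternatives were DESeq2 1.42.0, other scalings and filters, covariates, subsets of libraries and each library left out. The 43 genes and all lists were chosen with earlier results of these data known. Named were all 43 genes, up to 4 called genes with the largest change per further list and comparison, and Mki67, Myc, Hif1a and Tet1 to Tet3; of these, further-list genes were printed in part, chosen after their values were seen. Values after single choices were changed are given for named genes with an unadjusted p below 0.05, a restriction made after those values were seen; the full counts stand in the closing section.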

Additional observations from a re-analysis of the deposited data

Results flagged for a closer look

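In 18 of 192 groups of 4 to 7 libraries, the library at one end stood apart from the others by Dixon's criterion at the 95% level, where chance flags about 1 in 20 groups. WT replicate 5 and DKO replicate 2 each made up 7 of the 18. WT replicate 5 was low in Pfkl (24.96 CPM; other WT libraries 58.95 to 64.81), Tpi1 (39.59; 52.71 to 57.94), Pkm (384.8; 646.4 to 704.7), Suclg1 (46.55; 63.0 to 66.56) and Sdha (182.1; 257.4 to 275.2). It was high in Dld (67.12; 58.14 to 60.43) and in the Pfkp share of phosphofructokinases (51.71%; 42.16 to 43.66%). DKO replicate 2, the DKO library led by a single receptor, was high in Hk1 (330.8 CPM; other DKO libraries 218.2 to 240.7), Pfkfb3 (101.8; 62.89 to 73.43), Ogdh (472.7; 385.5 to 407.8) and the Slc16a3 share (43.35%; 8.982 to 18.43%). It was low in Ldhb (2.769 CPM; 11.8 to 14.64), the Ldhb share (0.526%; 2.617 to 2.998%) and the Pfkp share (33.05%; 43.75 to 46.94%). The others were TX2 replicate 5, high in Slc16a3 (14.27 CPM; 4.085 to 6.118), TX1 replicate 2, low in Pkm (775.9; 1079 to 1138) and high in Idh3b (180.1; 135.8 to 141.0), and DKO replicate 3, low in Idh3b (121.4; 137.4 to 139.4).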

How the results depend on the processing

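With an absolute log2 fold change above 1 also asked for, the 43 genes gave 8 calls in DKO against WT, 2 in TX1 against DKO, 6 in TX2 against DKO and 2 within TX2 between replicates 5 to 7 and 1 to 4. All genes gave 2541, 1369, 3365 and 2890 (18.5%, 9.81%, 24% and 20.8% of genes tested). At this threshold the share of the 43 genes was thus near that of all genes in DKO against WT and below it in the others. In 1 fit of all 4 groups, 17 of the 43 genes and 4456 of all genes (28.7%) passed in DKO against WT, where 26 and 5951 (43.4%) passed in the separate fit. Within replicates 4 and over 13 passed there, and all genes gave 3829 calls within replicates 1 to 3 and 3217 within replicates 4 and over. For TX1 against DKO, the 5 calls became 3 with no filter on low counts, and 31 within replicates 4 and over, which leave 1 TX1 library assumed to vary like the DKO libraries. They became 0 (edgeR; unadjusted p below 0.05 in 9, 5, 4 and 4 genes) with the replicate block, without the young DKO libraries, within replicates 1 to 3, and without TX1 replicate 3 and the young DKO libraries. All genes then gave 70, 3, 0 and 0 calls (3839, 3136, 2595 and 2146 unadjusted), 8962 within replicates 4 and over, 1413 in libraries labelled male and 4137 in DESeq2. With DKO replicates 4 and 5 alone against TX2, 13 of the 43 genes and 4334 of all genes passed.

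For TX2 against TX1, the 43 genes gave 4 calls in DESeq2, 7 in 1 fit of all groups, 5 with the replicate block, 3 in male libraries alone, 3 with labelled sex as a covariate, 3 for TX2 replicates 1 to 4 against TX1 replicates 1, 2 and 4, and 5 for the TX2 libraries labelled male against all TX1 libraries. All genes gave 16 with library size alone, 13 with no filter on low counts, 1 in the larger strand column, 1438, 1694, 563, 839, 664, 839 and 1496 in the 7 settings just named, and 183 for the TX2 libraries labelled female. Slc2a3 changed sign with the TX2 libraries labelled female alone, to -0.16 against DKO and -0.23 against TX1. Where not stated otherwise, the cause was not tested.

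Leaving out each library gave 2 to 9 of the 43 genes and 1326 to 5399 of all genes in TX1 against DKO (all genes lowest without TX1 replicate 3, highest without TX1 replicate 1), 0 to 4 and 0 to 1318 in TX2 against TX1 (both highest without TX1 replicate 4; all genes at 0 in edgeR without TX1 replicate 2 or TX2 replicate 1, 2, 3, 4 or 5, with 2043 to 2703 unadjusted), and 11 to 18 of the 43 genes within TX2 (11 without TX2 replicate 7). Share differences in percentage points ran, for Hk2, from 3.69 to 4.46 (DKO against WT), 11.7 to 18.8 (TX1 against DKO), 20.4 to 24.0 (TX2 against DKO) and 4.09 to 11.1 (TX2 against TX1, called without TX1 replicate 4). For Ldhb they ran from -11.4 to -10.1 (DKO against WT), -2.16 to -1.54 (TX2 against DKO) and -0.43 to 0.0563 (TX2 against TX1, the sign changing without TX1 replicate 2). For Slc16a3 they ran from 6.48 to 15.1 (DKO against WT) and -16.6 to -7.98 (TX2 against DKO), and for Slc2a3 from 6.48 to 7.77 (DKO against WT) and -2.98 to 7.44 (TX2 against TX1, sign changing without TX1 replicate 1). The Pfkp share ran from -2.37 to 1.10 in DKO against WT, the sign changing without WT replicate 5 (0.345) or DKO replicate 2 (1.10), and from -6.82 to -3.35 in TX2 against DKO, called without DKO replicate 2.

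Pairing asked for every same-numbered pair to correlate above 0.1 in its deviations, which no comparison met. The correlations ran from -0.022 to 0.393 (DKO and WT, where 4 of 5 pairs were above 0.1 and replicate 3 was not), -0.111 to 0.356 (TX1 and DKO), -0.126 to 0.101 (TX2 and DKO) and -0.221 to 0.313 (TX2 and TX1). With the replicate block, 24 of the 43 genes and 42.0% of all genes passed in DKO against WT, and 19 and 44.0% in TX2 against DKO. The median log2 difference of all genes within TX2 moved from 0.0232 to 0.155 in DESeq2, and to 0.102 with library size alone. The 327 results of named genes gave 6214 values on the same side of the threshold, 484 that lost and 138 that gained a call, and 210 that changed sign. The 133 results with an unadjusted p of 0.05 or more were then set aside after these values were seen. Of the 210, 2 are in the results kept, both Slc2a3, and 1 had an adjusted p below 0.05, Sdhb in TX1 against DKO within replicates 4 and over (0.27, adjusted p = 0.0197). The comparisons with TX1 replicate 3 left out and of TX2 replicates 1 to 4 with TX1 replicates 1, 2 and 4 were added after the data were seen. Depth allows genes of under 1 CPM, such as Ldhb in TX2 replicate 5, little precision.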

Other observations

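Genes of neighbouring pathways also differed between TX2 replicates 5 to 7 and 1 to 4, where 44.6% of genes tested in edgeR passed. Slc38a2, an amino acid transporter that carries glutamine, was at 313 ± 15.6 CPM (SD, n = 3) against 113 ± 18.1 (n = 4), a log2 difference of 1.47 ± 0.13 (edgeR adjusted p = 0.000229). Pck2, the mitochondrial phosphoenolpyruvate carboxykinase, was at 11.1 ± 3.72 against 1.49 ± 0.28 CPM (2.90 ± 0.29, edgeR adjusted p = 0.000343), and Tkt, a transketolase of the pentose phosphate pathway, at 759 ± 53 against 502 ± 55.2 CPM (0.61 ± 0.10, edgeR adjusted p = 0.00258). Ddit4, a stress-induced inhibitor of mTORC1, was lower, at 45.8 ± 7.98 against 177 ± 18.1 CPM (-1.94 ± 0.14, edgeR adjusted p = 0.000116). These genes were picked after their values were seen, and sex, clone and donor cannot be told apart here. The p-values measure only the spread between libraries of a clone.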
